A study of Apis mellifera with 12 samples.

Results

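A stretch of linkage group LG3 of the honey bee genome gives rise to a family of overlapping circular RNAs (circRNAs). Members of this family were followed in the ovaries of queens in 4 reproductive states. The family was chosen by position: every circRNA listed on the plus strand of LG3 with a start at or after 1090193 and an end at or before 1190378 in the Amel_4.5 assembly, a window of 100185 nt. The window holds 83 of the 20244 circRNAs of the table. It was delimited from the circRNAs listed in these same libraries, so the number of members, their listing and their reads are given as a description and not as a test. Differences between queen groups were not used to set the window.

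A circRNA is a closed loop that forms when a splice donor is joined backwards to an acceptor that lies upstream of it, a reaction called back-splicing. On the plus strand the start of a listed circRNA is the acceptor side of that junction and the end is the donor side, so circRNAs with one start and different ends use one acceptor with different donors. One host transcript can give many circRNAs in this way, and loops without a free end are resistant to exonucleases. In flies the exons that form circRNAs are known to be flanked often by long introns, and circRNAs differ between tissues. The table pairs no member with a gene, and the host gene or genes of this stretch are not named here.

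The 12 libraries were made from ovaries of Apis mellifera queens, 3 per group. The released queens had been kept in a cage for 7 days and then freed. Their ovaries were taken on day 8, when egg laying had resumed, on a count that puts the sampling of caged queens on day 7. The caged queens had been confined in a cage within their own colony for 7 days, which inhibited laying, and were sampled at the end of that time. The laying queens laid eggs normally, and neither they nor the virgin queens had a treatment in the labels. The released, caged and laying groups are called non-virgin as one set. The series asks whether circRNAs take part in the activation of the ovary and in the control of egg laying. Age, mating and the mix of cells in the ovary can differ between virgin queens and the other groups and cannot be told apart from virginity. Whether a group's 3 libraries came from different queens is not stated, so p-values measure the spread between these samples, which may be technical. No marker of ovary cells could be read from circRNAs without gene names, so the tissue label was not checked.

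Libraries held 106396 to 163875 circRNA reads in the released group, 170382 to 206697 in the caged group, 89106 to 173922 in the laying group and 66487 to 201414 in the virgin group. Members held 25403 reads in all, which is 1.48% of the table. Levels are given in CPM, a circRNA's reads as a share of the circRNA reads of its library, scaled to the same total in every library, so they are relative to the other circRNAs and not to all RNA of the ovary. In bulk ovaries, fewer cells of a type and less RNA per cell cannot be told apart. No library stood out as a copy of another.

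The members were combinations of a limited set of back-splice sites. The 83 members used 22 starts and 29 ends. Of the 359 pairs of these sites in which the end lies after the start, 83 were listed. The acceptor at 1091330 was joined to 18 different donors and carried 71.5% of the hotspot reads. The acceptor at 1139754 was joined to 15 donors and carried 12.03%. Together these acceptors account for 33 members and 83.6% of the reads, and 10 donors were used with both of them. Further acceptors with several members were 1147405 with 7 members and 1.25% of the reads, 1146253 with 5 and 0.488%, and 1176662 with 5 and 0.303%. The acceptor at 1187171, near the downstream edge, had 3 members but 8.74% of the reads, and 1090193, the first of the window, had 1 member and 2.50%.

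Members were spread more evenly over donors than over acceptors, and so were their reads. The donor at 1140732 carried 44.6% of the hotspot reads with 3 members, and 1147948 carried 17.7% with 4 members. The donor at 1159621 had the most members, 8, and 9.16% of the reads. The donor at 1187639 had 7 members and 8.32%, 1190378 had 7 members and 2.48%, 1177562 had 6 members and 3.70%, and 1152668 had 6 members and 2.80%. The donor at 1091573, only 243 nt after the main acceptor, had 3 members and 4.42%. Of the sites, 7 starts and 12 ends were used by 1 member each.

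Many members were long. Spans between the back-spliced ends, taken as end minus start, ran from 243 to 99048 nt with a median of 8624 nt, against 802 nt over all listed circRNAs. A span over 10000 nt was found for 40 members (48.2%), against 11.8% of all circRNAs. These long members held 76.0% of the hotspot reads, whereas such spans held 18.8% of the reads outside the hotspot. The span includes any introns, and the length of the circle itself was not measured. The longest were ame_circ_0012234 (1091330 to 1190378, 99048 nt), ame_circ_0012233 (1091330 to 1187639, 96309 nt) and ame_circ_0012232 (1091330 to 1179271, 87941 nt). The shortest were ame_circ_0012217 (1091330 to 1091573, 243 nt), ame_circ_0012384 (1187171 to 1187639, 468 nt) and ame_circ_0012385 (1187171 to 1187678, 507 nt).

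The reads were dominated by a few members. The most abundant, ame_circ_0012223 (1091330 to 1140732), held 38.7% of the hotspot reads, the top 2 held 55.5%, the top 5 held 75.7% and the top 10 held 85.7%. Second was ame_circ_0012225 (1091330 to 1147948) with 16.8%, followed by ame_circ_0012384 with 7.51%, ame_circ_0012228 (1091330 to 1159621) with 6.83% and ame_circ_0012299 (1139754 to 1140732) with 5.89%. Members were also listed more widely than the table as a whole. Of the 83, 15 (18.1%) were listed in all 12 libraries, against 7.16% of all circRNAs, and these held 88.9% of the hotspot reads. Another 20 (24.1%) were listed in 1 library only, against 59.9% of all. Tests were possible for 37 members, which passed a filter on low counts. The 46 that did not pass had 2 to 31 reads over the 12 libraries and held 385 reads together, 1.52% of the hotspot.

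The edge of the window at its upstream side is not a gap in back-splicing. Just outside lie ame_circ_0012180 (1063331 to 1091573), ame_circ_0012181 (1063717 to 1091573) and ame_circ_0012182 (1074119 to 1091573), each listed in 1 library with 3, 3 and 2 reads, which end at the donor of the first members. Just inside, ame_circ_0012215 (1090193 to 1091573) had 635 reads and ame_circ_0012216 (1090249 to 1091573) had 16. Downstream, the next circRNA on the plus strand starts 18151 nt after the window. No circRNA of the minus strand overlaps it.

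**Figure D1:**
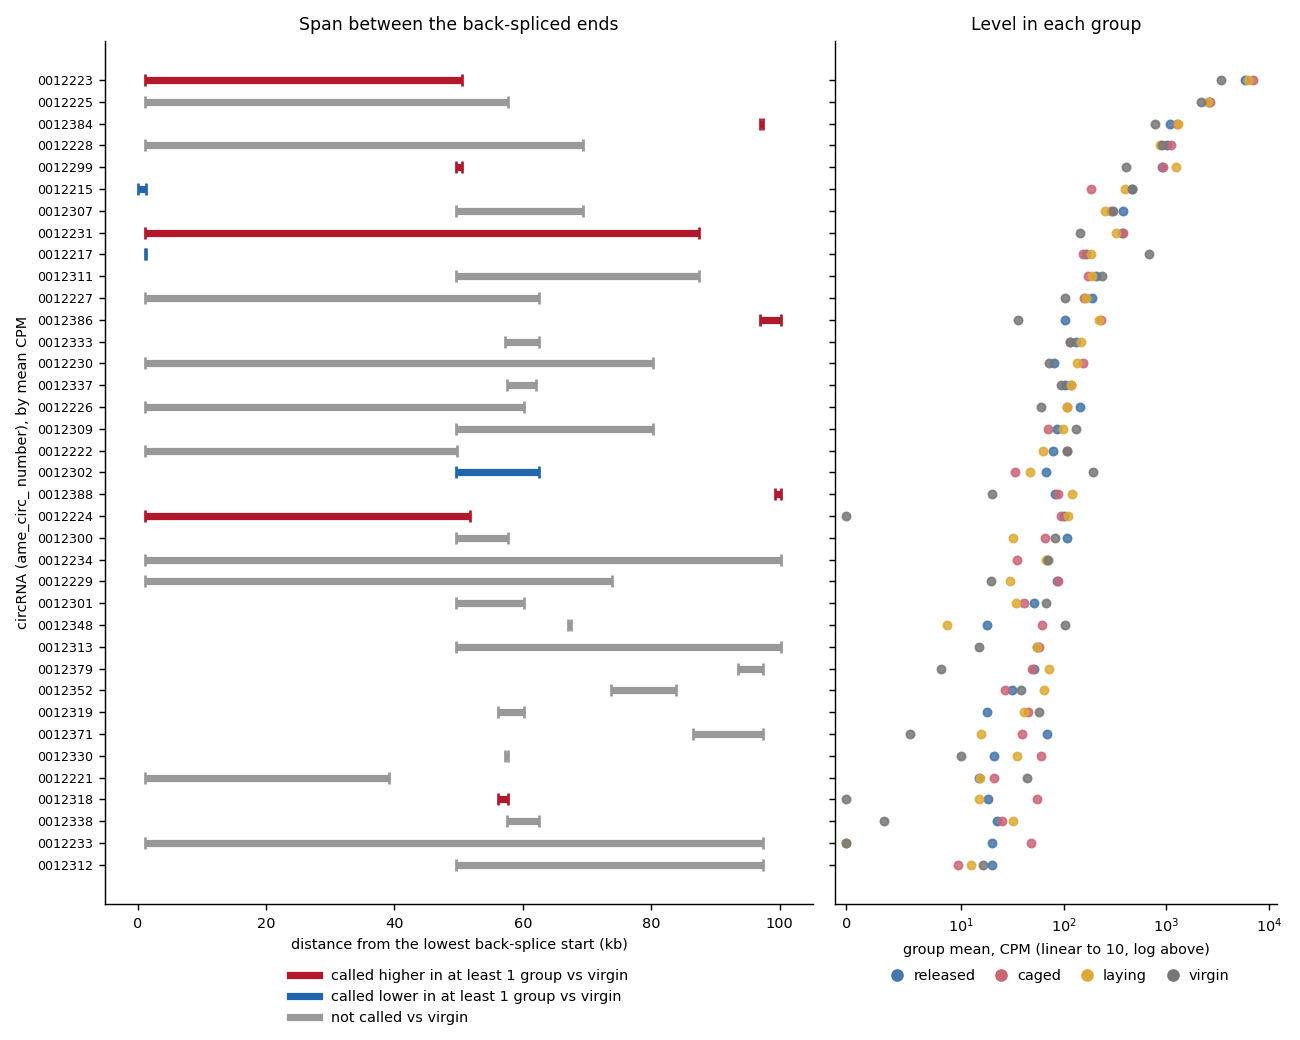
Spans of the 37 tested members, as distance in kb from the lowest start, beside the mean CPM of each of the 4 groups (3 libraries each; the CPM axis is linear to 10 and logarithmic above). Red marks members called higher and blue members called lower in at least 1 of the released, caged and laying groups against virgin. Most long members start at the same site, 1137 nt from the left edge, and virgin means lie left of the others for the red members.

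As a whole, the hotspot was higher in ovaries of released, caged and laying queens than in those of virgin queens. Its members took 1.51% ± 0.18 of circRNA reads in released, 1.63% ± 0.13 in caged, 1.55% ± 0.13 in laying and 1.12% ± 0.09 in virgin ovaries (SD, n = 3 each). Every library of the 3 groups lay above every virgin library. The exact two-sided permutation p for each of these 3 differences was 0.1, the smallest that 3 against 3 libraries can give, and 0.4 after Benjamini-Hochberg adjustment over the 216 comparisons of single values made.

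In the edgeR quasi-likelihood test of counts summed over the members, fitted together with all other loci and with Benjamini-Hochberg adjustment, the log2 fold change was 0.73 in released vs virgin (SE 0.18, 95% interval 0.36 to 1.10, adjusted p = 0.00413). It was 0.91 in caged vs virgin (SE 0.18, 0.54 to 1.28, adjusted p = 0.000644) and 0.80 in laying vs virgin (SE 0.18, 0.43 to 1.17, adjusted p = 0.00180). These are rises of 1.66-, 1.88- and 1.74-fold. The 3 comparisons share the virgin libraries. Of the 1591 loci tested, 16.0% were called higher in released, 17.0% in caged and 17.4% in laying vs virgin. Scaling by library totals in place of TMM (edgeR's scaling of libraries to one another) took the released vs virgin change to 0.43 with an adjusted p of 0.0586, so that this call depends on the scaling. It moved the median log2 fold change over all loci by -0.29 in released, -0.35 in caged and -0.32 in laying vs virgin. The size of all 3 rises thus depends on the scaling. Without ame_circ_0012223 the summed change was 0.54 in released (adjusted p = 0.0267), 0.64 in caged (adjusted p = 0.0104) and 0.60 in laying vs virgin (adjusted p = 0.0141). Over the whole table, spans over 10000 nt took 18.5% to 20.7% of reads in released, 21.9% to 22.6% in caged, 20.2% to 21.4% in laying and 14.5% to 14.6% in virgin libraries, and the part of this shift in the change of the hotspot was not tested.

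Between the 3 non-virgin groups, no difference of the summed count was called by edgeR or DESeq2, and none of the 1591 loci was by edgeR (0.0%). The log2 fold change was 0.11 in caged vs laying (95% interval -0.26 to 0.48, adjusted p = 0.912), -0.07 in released vs laying (-0.44 to 0.30, adjusted p = 0.964) and -0.18 in released vs caged (-0.54 to 0.19, adjusted p = 0.917). These intervals leave room for moderate changes in either direction.

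**Figure D2:**
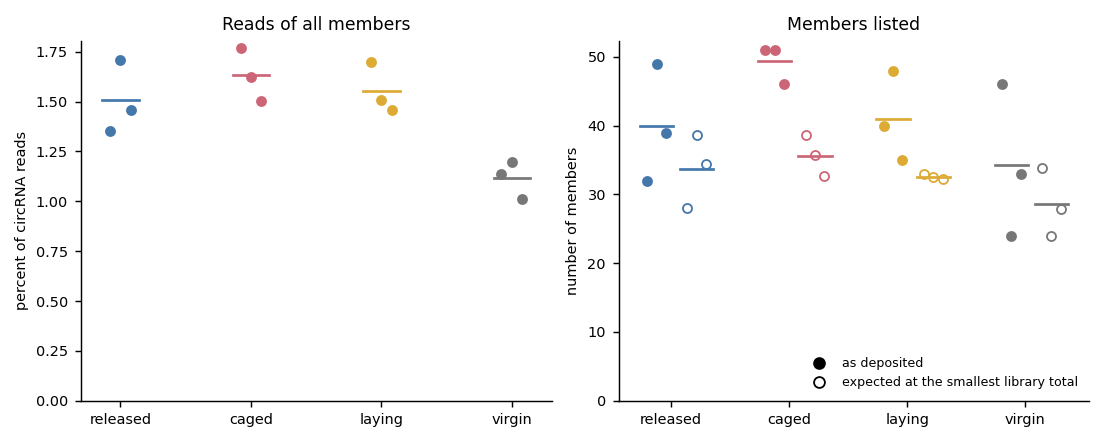
Left, reads of all members as a percent of the circRNA reads of each library. Right, number of members listed per library as deposited (filled) and the number expected at the smallest library total (open). Each point is a library and each line the mean of 3. On the left all virgin points lie below the others, while on the right the groups overlap after thinning.

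The number of members listed overlapped between groups. Counts were 32, 49 and 39 members in the released, 51, 51 and 46 in the caged, 40, 48 and 35 in the laying and 46, 24 and 33 in the virgin libraries. The caged group also held the most circRNA reads in all. At 66487 reads, the smallest library total, the expected number was 33.7 ± 5.39 in released, 35.7 ± 2.96 in caged, 32.5 ± 0.33 in laying and 28.6 ± 4.95 in virgin libraries (SD, n = 3 each). These thinned numbers overlapped between caged and virgin libraries, with an exact permutation p of 0.2. Members listed in 1 group only numbered 4 for released, 11 for caged, 3 for laying and 4 for virgin ovaries, and 37 members were listed in at least 1 library of every group. Members at 0 in all 3 libraries of a group numbered 27 for released, 15 for caged, 27 for laying and 30 for virgin ovaries. These group counts were not thinned, and the matching shares of all circRNAs were not counted. They are therefore a description only. Of the 30 members at 0 in the 3 virgin libraries, 3 passed the filter.

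Single members moved with the sum in part only. In released vs virgin, 4 of 37 members were called higher and 1 lower, where over all 3215 circRNAs tested 11.4% were called higher and 7.9% lower. In caged vs virgin, 7 were called higher and 3 lower, against 13.4% and 7.96% of all. In laying vs virgin, 7 were called higher and 1 lower, against 12.5% and 10.3% of all. The members called higher include ame_circ_0012224 in each comparison. They also include ame_circ_0012386 in caged and laying, ame_circ_0012318 in caged and ame_circ_0012388 in laying vs virgin. The calls of these members are a description, since they passed the filter through groups where they are high. The shares over all circRNAs come from the same filter. The median log2 fold change of the tested members was 0.42 in released, 0.53 in caged and 0.44 in laying vs virgin, beside 0.09, 0.11 and 0.00 over all circRNAs. Without virgin replicate 3, 6 members were called in caged vs virgin and 5 in laying vs virgin. In the test of any difference among the 4 groups, 6 members were called, against 20.3% of all circRNAs. Members whose libraries did not overlap virgin numbered 7 higher and 2 lower in released (16.9% and 20.1% of all circRNAs), 13 and 4 in caged (19.9% and 22.6%), and 8 and 5 in laying (17.7% and 23.2%). Calls against virgin in at least 1 group concerned 11 members, of which 4 were higher and 1 lower in all 3 groups. The share of all circRNAs called in at least 1 or in all 3 groups was not counted, so these numbers are a description only.

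The dominant circle, ame_circ_0012223, joins the donor at 1140732 to the main acceptor at 1091330. It was at 5348, 6596 and 5647 CPM in released, 7586, 7102 and 6054 CPM in caged, 7076, 5566 and 5869 CPM in laying, and 3163, 4031 and 3022 CPM in virgin libraries. The lowest library of the non-virgin groups was above the highest virgin library, and the non-virgin groups overlapped one another. It rose by a log2 fold change of 0.93 in released (SE 0.21, adjusted p = 0.00432), 1.24 in caged (SE 0.22, adjusted p = 0.000293) and 1.03 in laying vs virgin (SE 0.22, adjusted p = 0.00160). Without virgin replicate 3, the released vs virgin call was lost (log2 0.79, adjusted p = 0.0583).

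As a share of the hotspot reads, the dominant circle held 39.0% ± 0.51 in released, 42.3% ± 1.82 in caged, 39.6% ± 2.46 in laying and 30.4% ± 2.94 in virgin libraries (SD, n = 3 each). Each of the 3 groups lay above virgin without overlap. The exact permutation p was 0.1 each time, and 0.4 after the same adjustment. In the edgeR test against the rest of the hotspot, described further on, it was not called, with a relative log2 change of 0.36 in released (adjusted p = 0.879), 0.48 in caged (adjusted p = 0.702) and 0.38 in laying vs virgin (adjusted p = 0.784).

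The short circle ame_circ_0012299 uses the same donor, 1140732, with the second acceptor, 1139754, and so spans 978 nt. Its level was 1118, 793 and 784 CPM in released, 1055, 1009 and 721 CPM in caged, 1432, 1035 and 1246 CPM in laying, and 452, 406 and 369 CPM in virgin libraries. All virgin libraries were below all others. It rose in all 3 groups against virgin, with a log2 fold change of 1.24 in released (SE 0.27, adjusted p = 0.00261), 1.37 in caged (SE 0.26, adjusted p = 0.000820) and 1.73 in laying (SE 0.27, adjusted p = 9.59e-05). This call was kept under all 13 alternatives run for each comparison. Of the reads that ended at 1140732, ame_circ_0012299 held 13.4% ± 3.46 in released, 11.8% ± 0.98 in caged, 16.7% ± 0.92 in laying and 10.8% ± 1.67 in virgin libraries (SD, n = 3 each). Laying was above caged without overlap in this split (exact permutation p = 0.1, adjusted p = 0.4), which is the smallest p possible.

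The long circle ame_circ_0012231 runs from the main acceptor to 1177562, over 86232 nt. It was at 338, 500 and 261 CPM in released, 450, 376 and 301 CPM in caged, 405, 213 and 348 CPM in laying, and 214, 135 and 84.0 CPM in virgin libraries. Released and caged libraries were above all virgin libraries, and laying replicate 2 was just below virgin replicate 1. The log2 fold change was 1.41 in released (adjusted p = 0.0191), 1.49 in caged (adjusted p = 0.0107) and 1.21 in laying vs virgin (adjusted p = 0.0368) in the edgeR test. These calls depended on single libraries. In released vs virgin the adjusted p was 0.113 without released replicate 2 and 0.135 without virgin replicate 3, and it was just over the threshold of 0.05 without virgin replicate 2. In caged vs virgin it was 0.0821 without virgin replicate 3. In laying vs virgin it was 0.108 without laying replicate 1, 0.0777 without laying replicate 3, 0.0757 without virgin replicate 2 and 0.195 without virgin replicate 3.

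A member found in every non-virgin library and in no virgin library was ame_circ_0012224, from the main acceptor to 1141886, the only member that ends there. It was at 122, 91.5 and 90.1 CPM in released, 67.7, 112 and 102 CPM in caged, 90.0, 121 and 123 CPM in laying, and was listed at 0 in all 3 virgin libraries. In reads these were 13, 15 and 10 in released, 14, 19 and 18 in caged, and 12, 21 and 11 in laying libraries. The adjusted p of the edgeR test was 0.000140 in released, 0.000101 in caged and 8.29e-05 in laying vs virgin, and the call was kept under all 13 alternatives of each. It passed the filter on low counts through the non-virgin groups only, where it is high. These calls are therefore a description and support nothing further. No count of 1 occurs in the table, so a listed 0 may stand for fewer than 2 reads, and no fold is given.

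Against this direction, ame_circ_0012217 was lower in all non-virgin groups. It is the shortest member, joining the donor at 1091573 to the main acceptor 243 nt upstream. It was at 103, 220 and 171 CPM in released, 121, 135 and 204 CPM in caged, 165, 121 and 269 CPM in laying, and 645, 827 and 579 CPM in virgin libraries. The highest non-virgin library lay far below the lowest virgin library. The fitted log2 change was -1.87 in released (SE 0.37, adjusted p = 0.00122), -1.94 in caged (SE 0.36, adjusted p = 0.000593) and -1.75 in laying vs virgin (SE 0.37, adjusted p = 0.00165), which is 3.65-, 3.83- and 3.38-fold lower. All 13 alternatives of each kept the call. Its share of the hotspot was 1.07% ± 0.274 in released, 0.958% ± 0.355 in caged, 1.21% ± 0.56 in laying and 6.10% ± 0.69 in virgin libraries (SD, n = 3 each).

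**Figure D3:**
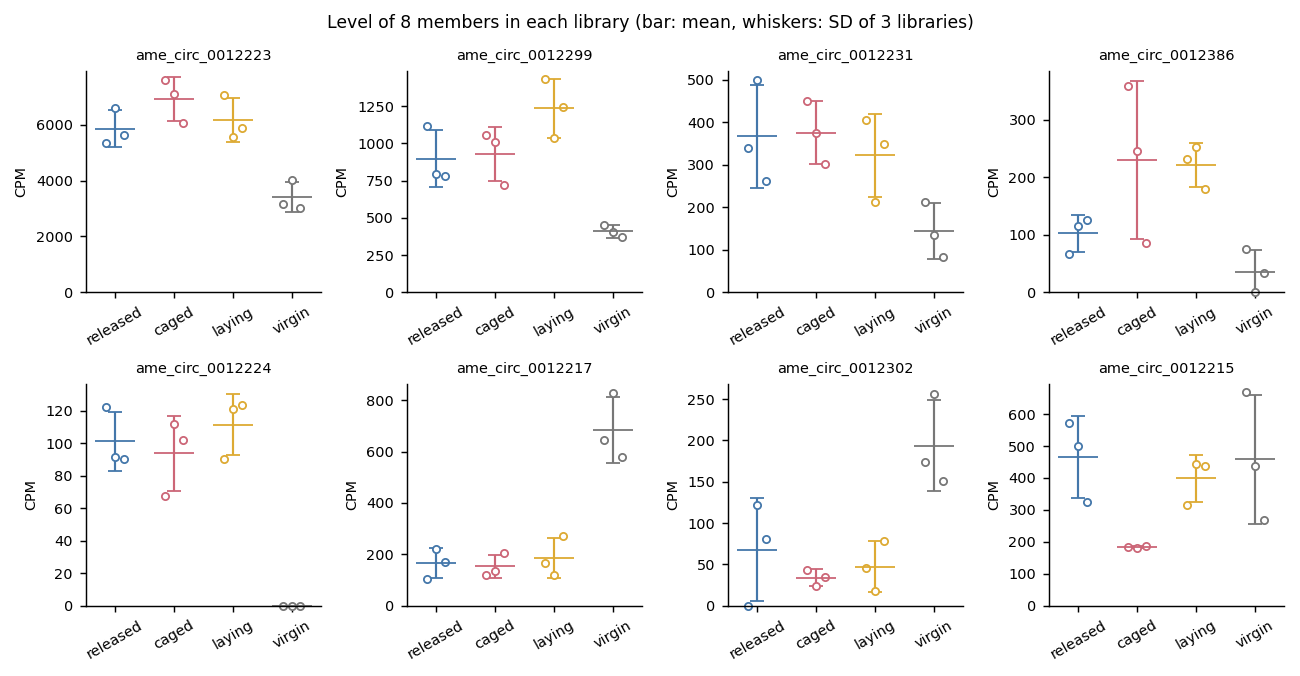
CPM of 8 members in each of the 12 libraries (points), with the mean and SD of 3 libraries per group. Virgin libraries are lowest for ame_circ_0012223 and ame_circ_0012299 and at 0 for ame_circ_0012224, highest for ame_circ_0012217 and ame_circ_0012302, and the caged libraries are lowest for ame_circ_0012215 at 182 to 187 CPM.

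Near the downstream edge, 3 members that use the acceptors at 1187171 and 1189451 were called higher in some groups. The most abundant of them, ame_circ_0012384 (1187171 to 1187639), was at 978, 1172 and 1099 CPM in released, 1268, 798 and 1719 CPM in caged, 787, 1190 and 1953 CPM in laying, and 784, 782 and 772 CPM in virgin libraries. Its virgin libraries were close together at the bottom, and its caged and laying libraries were wide apart. The log2 fold change was 0.61 in released (95% interval -0.05 to 1.26, adjusted p = 0.183), 0.89 in caged (adjusted p = 0.0467) and 0.89 in laying vs virgin (adjusted p = 0.0463).

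Both calls of ame_circ_0012384 were marginal in edgeR and were lost under 10 of 13 alternatives each. For caged vs virgin the adjusted p was 0.0863 without caged replicate 1, 0.201 without caged replicate 3, and 0.0866, 0.0877 and 0.136 without virgin replicates 1, 2 and 3. For laying vs virgin it was 0.0822 without laying replicate 2, 0.261 without laying replicate 3 (log2 0.55), and 0.0948, 0.0830 and 0.147 without virgin replicates 1, 2 and 3. The DESeq2 test gave 0.0785 in caged and 0.0552 in laying vs virgin, and the other scalings also ended both calls.

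With the same acceptor and a more distant donor, ame_circ_0012386 (1187171 to 1190378) had larger fitted changes. It was at 65.8, 116 and 126 CPM in released, 358, 247 and 85.1 CPM in caged, 232, 253 and 180 CPM in laying, and 74.5, 0 and 33.6 CPM in virgin libraries. Caged and laying libraries were all above virgin, while the released group overlapped it. The log2 fold change was 2.52 in caged (SE 0.62, adjusted p = 0.00609) and 2.43 in laying vs virgin (SE 0.63, adjusted p = 0.00824). In released vs virgin it was 1.30 (95% interval -0.08 to 2.68, adjusted p = 0.174). The member passed the filter on low counts through the non-virgin groups, where it is higher. Its calls are therefore a description and support nothing further. Without virgin replicate 1 the changes were larger, at 3.65 in caged and 3.52 in laying vs virgin.

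The neighbour ame_circ_0012388 shares the donor 1190378 with the acceptor 1189451 and spans 927 nt. It was at 56.4, 146 and 45.0 CPM in released, 106, 112 and 45.4 CPM in caged, 127, 155 and 78.6 CPM in laying, and 34.8, 0 and 25.2 CPM in virgin libraries. No group overlapped virgin, but the counts were low, with 10 virgin reads in all. The member passed the filter on low counts through the non-virgin groups, where it is higher. Its call is therefore a description and supports nothing further. The change was called in laying vs virgin only (log2 2.44, SE 0.73, adjusted p = 0.0191). In released vs virgin it was 1.90 (adjusted p = 0.0772) and in caged vs virgin 2.00 (adjusted p = 0.0549). In laying vs virgin the adjusted p was 0.0808 without laying replicate 2 and 0.0687 without virgin replicate 3, and the change was 3.06 without virgin replicate 1. Whether the 3 groups differ from one another here is answered by the direct comparisons, none of which was called.

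Another 3 members passed the threshold in caged vs virgin alone. A short circle in the middle of the window, ame_circ_0012318 (1146253 to 1147948, 1695 nt), was at 18.8, 36.6 and 0 CPM in released, 91.9, 41.1 and 34.1 CPM in caged, 0, 11.5 and 33.7 CPM in laying, and 0 in all virgin libraries. It rested on 19, 7 and 6 reads in the caged libraries. It passed the filter on low counts through the caged group, where it is highest, so its call (adjusted p = 0.0284) is a description and supports nothing further. The adjusted p was 0.0849 without virgin replicate 1 and 0.0761 without virgin replicate 3.

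The member ame_circ_0012302 (1139754 to 1152668) was at 0, 122 and 81.1 CPM in released, 43.5, 23.5 and 34.1 CPM in caged, 45.0, 17.3 and 78.6 CPM in laying, and 174, 256 and 151 CPM in virgin libraries. All non-virgin libraries were below all virgin libraries. The log2 fold change was -2.25 in caged vs virgin (SE 0.74, adjusted p = 0.0353), -1.26 in released vs virgin (adjusted p = 0.224) and -1.94 in laying vs virgin (adjusted p = 0.0661). Leaving out any caged or virgin library ended the caged vs virgin call. The adjusted p was then 0.0665, 0.120 and 0.0958 without caged replicates 1, 2 and 3, and 0.0732, 0.0900 and 0.0588 without virgin replicates 1, 2 and 3.

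The first member of the window, ame_circ_0012215, was lowest in the caged group. It joins the donor at 1091573 to the acceptor at 1090193, the only listed use of that acceptor. It was at 573, 500 and 324 CPM in released, 184, 182 and 187 CPM in caged, 315, 443 and 438 CPM in laying, and 670, 436 and 269 CPM in virgin libraries. All caged libraries were below all others, and the other 3 groups overlapped. Against virgin, the caged log2 fold change was -1.16 (SE 0.36, adjusted p = 0.0265), and it was 0.10 in released vs virgin (95% interval -0.63 to 0.83) and -0.09 in laying vs virgin (-0.83 to 0.64). The caged vs virgin call was lost without caged replicate 1 (adjusted p = 0.0750), caged replicate 2 (0.0837), caged replicate 3 (0.0749) or virgin replicate 1 (0.233), and the change was then -0.65 without virgin replicate 1. Against laying the caged level had a log2 fold change of -1.07 (adjusted p = 0.300), and released vs caged had 1.26 (SE 0.36, adjusted p = 0.557), neither of which was called.

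**Figure D4:**
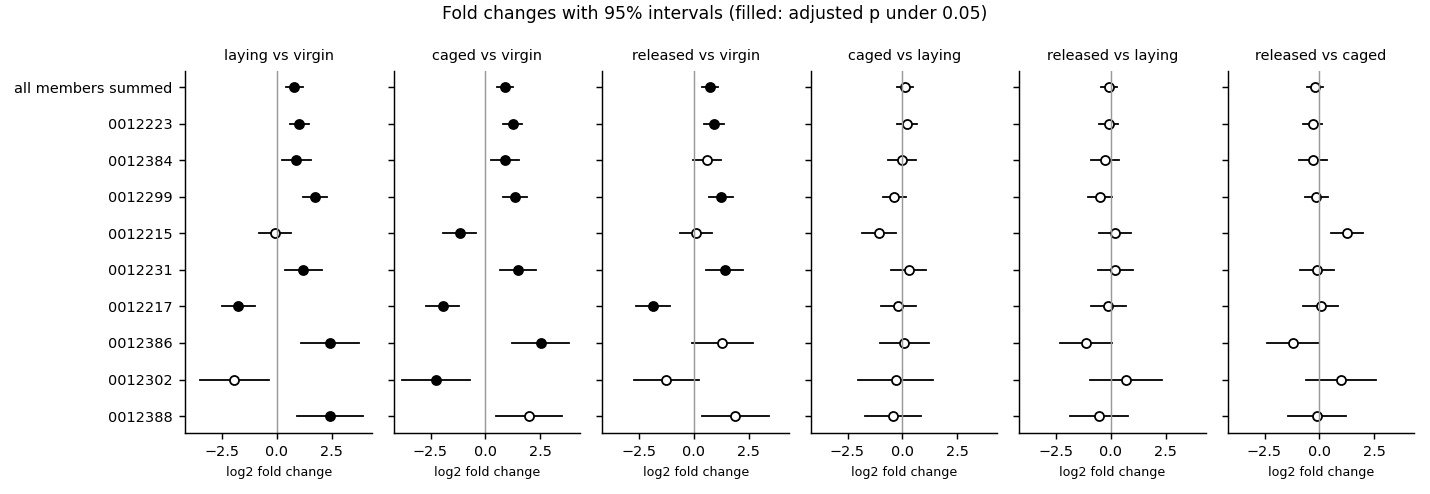
Log2 fold changes of the summed hotspot and of the called members that had reads in every group (points), with 95% intervals (lines), in the 6 comparisons. Filled points have an adjusted p under 0.05, and all filled points lie in the 3 comparisons against virgin.

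Between the non-virgin groups no member was called by edgeR, and none by DESeq2. In caged vs laying, 0.0933% of all circRNAs were called and 2 members had an unadjusted p under 0.05, ame_circ_0012215 and ame_circ_0012233. In released vs laying, no circRNA of the table was called (0.0%) and no member had an unadjusted p under 0.05. In released vs caged, no circRNA was called and 2 members, ame_circ_0012215 and ame_circ_0012386, had an unadjusted p under 0.05. Over all 3215 circRNAs tested, 280, 232 and 205 had an unadjusted p under 0.05 in caged vs laying, released vs laying and released vs caged. Members whose libraries did not overlap numbered 2 higher and 2 lower in caged vs laying (9.46% and 7.56% of all circRNAs), 2 and 3 in released vs laying (7.15% and 5.57%), and 1 and 1 in released vs caged (6.03% and 5.75%).

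Several members with the smallest p in those comparisons were sparse. The second longest member, ame_circ_0012233, was listed in 3 libraries only, at 0, 61.0 and 0 CPM in released and 87.1, 58.7 and 0 CPM in caged, and was listed at 0 in all laying and virgin libraries. The member ame_circ_0012348 (1157143 to 1157690) was at 0, 0 and 54.0 CPM in released, 87.1, 99.8 and 0 CPM in caged, 14.99, 11.5 and 0 CPM in laying, and 49.6, 150 and 109 CPM in virgin libraries. Its spread within the caged group exceeded the difference from laying (log2 2.62, adjusted p = 0.574). The other members with the smallest p were ame_circ_0012352 (1163983 to 1174000; -1.22 in caged vs laying, adjusted p = 0.695) and ame_circ_0012300 (1139754 to 1147948; 1.62 in released vs laying, adjusted p = 0.706). For ame_circ_0012299, released vs laying gave -0.49 (95% interval -1.02 to 0.04, adjusted p = 0.706), and for ame_circ_0012386 it gave -1.13 (-2.33 to 0.07, adjusted p = 0.698). For ame_circ_0012302, released vs caged gave 0.98 (adjusted p = 0.993).

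Several abundant members were not called in any comparison. The second most abundant, ame_circ_0012225, averaged 2572 ± 421 CPM in released, 2656 ± 9.11 CPM in caged, 2555 ± 713 CPM in laying and 2177 ± 867 CPM in virgin ovaries (SD, n = 3 each). Its log2 fold change against virgin was 0.42 in released (95% interval -0.14 to 0.97), 0.53 in caged (-0.03 to 1.08) and 0.44 in laying (-0.12 to 0.99). The circle ame_circ_0012228 averaged 1014 ± 194 CPM in released, 1115 ± 97.7 CPM in caged, 858 ± 248 CPM in laying and 906 ± 208 CPM in virgin ovaries. These intervals do not show that the levels were alike. From the second acceptor, ame_circ_0012307 (1139754 to 1159621) averaged 380 ± 15.2, 291 ± 86.5, 253 ± 115 and 304 ± 282 CPM in released, caged, laying and virgin ovaries, and ame_circ_0012311 (1139754 to 1177562) averaged 208 ± 34.1, 173 ± 44.2, 190 ± 40.5 and 237 ± 54.0 CPM. The wide virgin spread of ame_circ_0012307 came from 238, 60.2 and 613 CPM in its 3 libraries.

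Summed by acceptor, the main start rose with the hotspot as a whole. Start 1091330 summed to 10784 ± 1504 CPM in released, 12041 ± 967 CPM in caged, 10846 ± 1691 CPM in laying and 7807 ± 1120 CPM in virgin ovaries (SD, n = 3 each), and was called higher against virgin in all 3 groups. Its log2 fold change was 0.64 in released (adjusted p = 0.0297), 0.85 in caged (adjusted p = 0.00471) and 0.69 in laying (adjusted p = 0.0175). Its share of the hotspot reads was 71.5% ± 1.46 in released, 73.8% ± 1.65 in caged, 69.5% ± 5.21 in laying and 69.8% ± 4.92 in virgin libraries (SD, n = 3 each), and each group overlapped virgin. Start 1187171 was called higher in caged (1.08, adjusted p = 0.00766) and laying vs virgin (1.06, adjusted p = 0.00826), and 1189451 likewise (2.03 in caged, adjusted p = 0.0480; 2.49 in laying, adjusted p = 0.0165). Start 1183706 was called higher in laying vs virgin (2.53, adjusted p = 0.0237), and start 1090193, which has the single member ame_circ_0012215, was called lower in caged vs virgin. Starts 1183706 and 1189451 passed the filter on low counts through the non-virgin groups, where they are higher. Their calls are therefore a description and support nothing further. Start 1139754, second by number of members, summed to 1905 ± 137 CPM in released, 1681 ± 374 CPM in caged, 1960 ± 126 CPM in laying and 1497 ± 320 CPM in virgin ovaries and was not called.

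Of the 14 starts tested, 1 was called higher in released vs virgin, 3 higher and 1 lower in caged vs virgin, and 4 higher in laying vs virgin. Those called higher include start 1189451 in caged and laying vs virgin and start 1183706 in laying vs virgin, whose calls are a description. Of the 2592 starts tested in all, 12.2%, 13.9% and 13.7% were called higher and 9.1%, 9.95% and 11.8% lower in these comparisons. The released vs virgin call was lost without released replicate 2, virgin replicate 1 or virgin replicate 3, leaving 0. In caged vs virgin 2 starts were called without caged replicate 1, caged replicate 2 or virgin replicate 1. In laying vs virgin 2 were called without laying replicate 3 or virgin replicate 3.

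Counts were also summed by donor. End 1140732 summed to 6768 ± 554 CPM in released, 7842 ± 961 CPM in caged, 7408 ± 987 CPM in laying and 3814 ± 551 CPM in virgin ovaries (SD, n = 3 each). It was called higher in all 3 groups, with a log2 fold change of 1.03 in released (adjusted p = 0.00121), 1.30 in caged (adjusted p = 9.96e-05) and 1.19 in laying vs virgin (adjusted p = 0.000236). It took 45.1% ± 2.39 of the hotspot reads in released, 48.0% ± 2.58 in caged, 47.6% ± 3.36 in laying and 34.1% ± 2.66 in virgin libraries, without overlap with virgin (exact permutation p = 0.1 each, adjusted p = 0.4). The end 1147948, second by reads, averaged 2720 ± 462, 2837 ± 80.7 and 2637 ± 708 CPM in released, caged and laying ovaries and 2270 ± 878 CPM in virgin ovaries, and was not called. Neither was 1159621, the end with most members, at 1395 ± 204, 1461 ± 159 and 1140 ± 377 CPM in released, caged and laying and 1213 ± 486 CPM in virgin ovaries.

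The first donor went the other way. End 1091573 averaged 668 ± 124 CPM in released, 338 ± 47.0 CPM in caged, 583 ± 115 CPM in laying and 1142 ± 256 CPM in virgin ovaries. Its log2 fold change was -0.60 in released (adjusted p = 0.109), -1.52 in caged (adjusted p = 0.000323) and -0.78 in laying vs virgin (adjusted p = 0.0365), so it was called lower in caged and laying. The fit for this end included the 3 circRNAs just outside the window. Within this end, ame_circ_0012217 held 25.0% ± 8.59 of the reads in released, 44.8% ± 6.54 in caged, 31.3% ± 8.75 in laying and 60.9% ± 10.4 in virgin libraries, and most of the rest was ame_circ_0012215. Released and laying were below virgin without overlap (exact permutation p = 0.1, the smallest possible, adjusted p = 0.4), and caged overlapped virgin.

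Further ends called higher were 1187639 in caged (1.02, adjusted p = 0.0120) and laying vs virgin (0.99, adjusted p = 0.0145), 1190378 in laying vs virgin (1.77, adjusted p = 0.0335), and 1141886, which has the single member ame_circ_0012224. The calls of end 1141886 are a description, as for that member, and are part of the counts called higher that follow. Of the 18 ends tested, 2 were called higher in released vs virgin, 3 higher and 1 lower in caged vs virgin, and 4 higher and 1 lower in laying vs virgin. Of the 2581 ends tested in all, 12.2%, 14.7% and 14.1% were called higher and 9.41%, 9.92% and 11.8% lower. In laying vs virgin 3 ends were called without laying replicate 2, virgin replicate 2 or virgin replicate 3. Between the non-virgin groups no start and no end of the hotspot was called by edgeR or DESeq2. With an unadjusted p under 0.05 there was 1 start and 1 end in caged vs laying, none in released vs laying, and 1 of each in released vs caged. In both of these comparisons the sites were start 1090193 and end 1091573. Such an unadjusted p was found for 249 of all 2592 starts and 251 of all 2581 ends in caged vs laying. In released vs laying it was found for 200 and 202, and in released vs caged for 165 and 169. Over all features 0.0386% of starts and 0.116% of ends were called in caged vs laying, 0.0% and 0.0387% in released vs laying, and 0.0% of either in released vs caged.

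**Figure D5:**
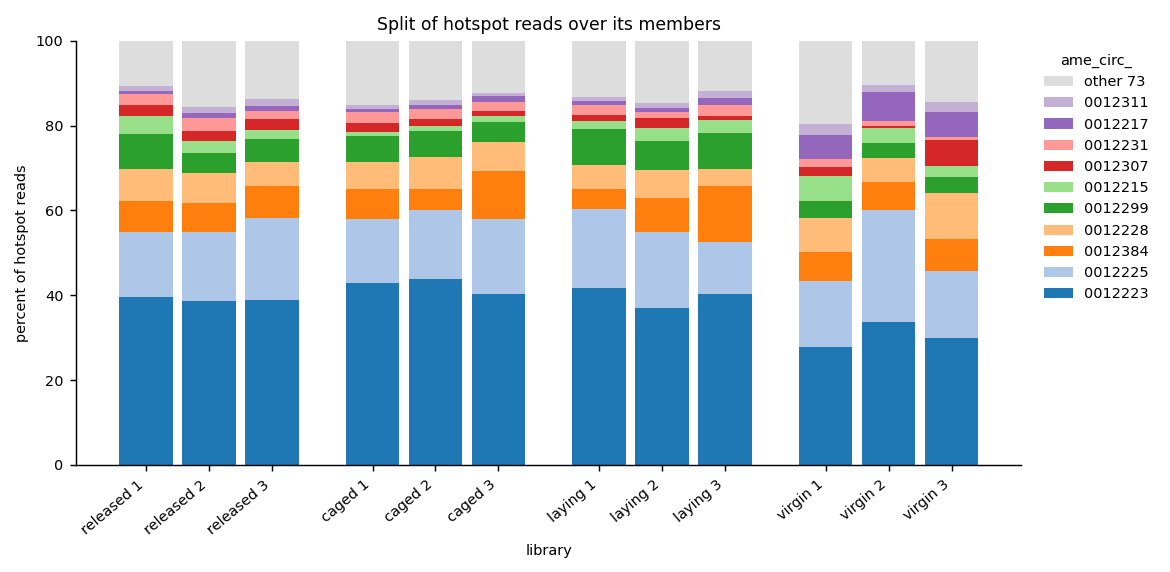
Percent of the hotspot reads of each library held by the 10 most abundant members and by the other 73 together. The lowest segment, ame_circ_0012223, is shorter in the 3 virgin libraries, and the segment of ame_circ_0012217 is taller there.

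Members were also tested against the rest of the hotspot in the same fit, to see which changed apart from the others. The hotspot as a unit was called in this test in released vs virgin (adjusted p = 0.000609), caged vs virgin (adjusted p = 1.08e-07) and laying vs virgin (adjusted p = 6.46e-06), as were 13.4%, 14.3% and 16.1% of the 603 loci with at least 2 tested circRNAs. It was not called in caged vs laying (adjusted p = 0.988), released vs laying (1.00) or released vs caged (0.999), where 0.332%, 0.166% and 0.166% of loci were.

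The members that changed apart were few. Relative to the rest of the hotspot, ame_circ_0012217 was lower by a log2 change of -2.44 in released (adjusted p = 0.00164), -2.69 in caged (adjusted p = 0.000158) and -2.40 in laying vs virgin (adjusted p = 0.00111). The member ame_circ_0012224 was higher in all 3 (adjusted p = 0.00947 in released, 0.0117 in caged and 0.00494 in laying vs virgin). For ame_circ_0012224 this is again a description, since only its reads in the non-virgin groups took it past the filter. In caged vs virgin, ame_circ_0012215 (-1.92, adjusted p = 0.0104) and ame_circ_0012302 (-3.003, adjusted p = 0.0177) were also lower than the rest. So 2 members changed apart in released, 4 in caged and 2 in laying vs virgin, where 2.04%, 2.83% and 3.17% of the 2401 circRNAs so tested did. In each comparison ame_circ_0012224 was the 1 member called higher. The members called lower numbered 1 in released, 3 in caged and 1 in laying vs virgin. In released vs virgin 1 member was called without virgin replicate 1 or virgin replicate 3. In caged vs virgin 1 was called without caged replicate 2, and 2 without virgin replicate 1 or virgin replicate 3. Between the non-virgin groups no member was called, with 3, 1 and 1 members at an unadjusted p under 0.05 in caged vs laying, released vs laying and released vs caged. Over all circRNAs so tested 0.125%, 0.0833% and 0.0% were called there after adjustment, and the share at an unadjusted p under 0.05 was not counted. DESeq2 offers no such test and was not run for it.

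Members that share a back-splice site did not all pass the test in the same direction. Of the 14 tested members that start at 1091330, 3 were called higher and 1 lower in each of the 3 comparisons with virgin. These were ame_circ_0012223, ame_circ_0012224 and ame_circ_0012231 on the higher side and ame_circ_0012217 on the lower side. Of these, the calls of ame_circ_0012224 are a description only, as said above. Of the reads starting there, ame_circ_0012217 held 1.498% ± 0.36 in released, 1.30% ± 0.49 in caged, 1.78% ± 0.95 in laying and 8.73% ± 0.37 in virgin libraries, and ame_circ_0012223 held 54.5% ± 1.84, 57.3% ± 1.95, 57.2% ± 4.91 and 43.6% ± 1.39 (SD, n = 3 each). Of the 9 tested members that start at 1139754, 1 was called higher in each comparison, ame_circ_0012299, and 1 lower in caged vs virgin, ame_circ_0012302. Of the 4 tested members that end at 1190378, none was called in released, 1 in caged and 2 in laying vs virgin, all higher. These calls were of ame_circ_0012386 and ame_circ_0012388 and are a description, as said above. Beside these small counts, 11.4% to 13.4% of all circRNAs tested were called higher and 7.9% to 10.3% lower in the comparisons with virgin.

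The members whose CPM over the 12 libraries was most like that of ame_circ_0012223 were ame_circ_0012231 (Spearman's rho 0.87), ame_circ_0012330 (0.77), ame_circ_0012386 (0.76), ame_circ_0012318 (0.73) and ame_circ_0012233 (0.70). This is a description over libraries that fall into groups and share their totals, with no p. Tied values enter the rho of ame_circ_0012233, which no laying or virgin library listed, and of ame_circ_0012318, which no virgin library listed. Only ame_circ_0012231 and ame_circ_0012233 share the acceptor of ame_circ_0012223, and none of the 5 shares its donor.

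The longest member, ame_circ_0012234, which joins the last donor of the window to the main acceptor, was listed in 7 libraries at 79.3 and 126 CPM in released, 106 CPM in caged, 97.4 and 103 CPM in laying and 94.3 and 118 CPM in virgin ovaries, and at 0 in the other 5. It was not called in any comparison. The member ame_circ_0012232 was listed in released replicate 2 at 61.0 CPM and laying replicate 1 at 82.5 CPM only, and ame_circ_0012385 was listed in 7 libraries with 31 reads in all. Both stayed below the filter and were not tested.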

How the data were processed

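From 12 ovary samples, rRNA-depleted RNA was treated with RNase R, which degrades linear RNA, and sequenced as directional libraries against Amel_4.5, per the labels. The submitters' processing notes list Bowtie, and for the program that called circRNAs "not given in the sources used here" applies. The authors deposited read counts per circRNA and library. The authors' other columns carry the word TPM in the file headers but hold CPM, since each equals its count over the library's total, scaled (largest difference 4.989e-06), with no length term. The smallest count above 0 is 2, so no limit was computed from a 0. Spans are end minus start, since the base from which starts count is unknown. Overlapping circRNAs share splice sites, so their split rests on the authors' calling.

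The main test was the quasi-likelihood F test of edgeR 4.0.16 (R 4.3.3) with TMM scaling, after filterByExpr at min.count 5 and min.total.count 15 left 3215 circRNAs, in one fit of the 4 groups, with Benjamini-Hochberg adjustment over all features and a threshold of 0.05. Printed folds come from this fit and CPM from library totals, so they need not match. Starts, ends and loci (overlapping circRNAs on one strand, joined with GenomicRanges 1.54.1) were fitted from summed counts, and members against their locus with diffSpliceDGE. The scripts were tested on simulated data. Single values per library used exact two-sided permutation tests in scipy 1.17.1. DESeq2 1.42.0, other scalings and filters, each library left out, a replicate block and the compared groups alone were the alternatives. The members and lists were chosen with earlier results of these data known. Named are the 10 most abundant members, up to 6 called per direction and comparison (also for change apart), the 2 with the smallest p per direction where none was called, the longest and shortest 3, the top 5 sites, and the 5 most like the dominant one. The gene table used here is of another assembly, so 0 circRNAs were matched to genes, and no sequence is shown.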

Additional observations from a re-analysis of the deposited data

How the results depend on the processing

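Scaling by library totals moved the median log2 fold change of all circRNAs by -0.12 in released, -0.18 in caged and -0.15 in laying vs virgin, and DESeq2 size factors moved it by -0.10 in caged vs virgin. Over all loci, library totals moved the median by -0.29 in released, -0.35 in caged and -0.32 in laying vs virgin. The summed released vs virgin change was 0.43 (adjusted p = 0.0586) by library totals. Starts called in released vs virgin numbered 0 by library totals or DESeq2 size factors, and those in caged vs virgin 2 without a filter. Members that change apart in laying vs virgin numbered 4 by library totals, DESeq2 size factors, the stricter filter or the 2 groups alone. Members listed, released minus laying, gave -1 as deposited and 1.14 after thinning. Leaving out each library in turn gave 4 to 7 (released), 6 to 10 (caged) and 5 to 8 (laying) members called vs virgin, 0 to 1, 2 to 3 and 2 to 4 starts, 2 to 3, 4 to 6 and 3 to 5 ends, and, of members that change apart, 1 to 3, 1 to 3 and 2. The summed released vs laying change was -0.20 to 0.033 (0.033 without released replicate 1) and the share of ame_circ_0012223 in that comparison -2.02 to 0.367 percentage points (0.367 without laying replicate 1). Of the 23 calls of named members, 10 were lost under at least 1 alternative. Replicate numbers did not pair the samples: deviations of same-numbered libraries correlated at -0.16 to 0.108 (median -0.0095), 1 of 18 pairs over 0.1. With a replicate block, 5, 8 and 7 members were called in released, caged and laying vs virgin, and the calls of ame_circ_0012384 and ame_circ_0012318 were lost. Members with few reads could show only large changes, and 46 could not be tested.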
